A study of Mus musculus with 8 samples.

Results

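The 10 apolipoprotein genes described here are Apoa1, Apoa2, Apoa4, Apoa5, Apob, Apoc1, Apoc2, Apoc3, Apoe and Apom. They were chosen by gene name. Every probe that carried one of these names on the array was kept, which gave 13 of the 55681 probes on the array. All 13 were well above background on all 8 arrays, so all 13 were among the 27639 probes that were tested. Apoa2, Apob and Apoc3 had 2 probes each and the other genes had 1, and each probe is given separately.

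Liver RNA came from 4 male NZO mice (NZO/HiBomDife, New Zealand Obese, an inbred strain that becomes obese and is susceptible to diabetes) and 4 male B6 mice (C57BL/6, a lean inbred strain). Both strains were 6 weeks old and both received a high-fat diet with 45% fat, so neither group is a standard diet control. Each mouse was measured on 1 single-colour Agilent array. No source says whether the mice of a strain shared a litter or cage, and the p-values measure the spread between these mice. The strain is the only labelled difference, and a strain difference is that of 2 whole inbred genomes.

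Apolipoproteins are the protein part of the particles that carry lipid in plasma. Apob is the structural protein of very low density lipoprotein (VLDL), Apoa1 and Apoa2 are the main proteins of high density lipoprotein (HDL), and the Apoc proteins, Apoa5 and Apoe control how fast triglyceride is removed and particles are taken up. The liver makes most of them, while Apoa4 in rodents is made in both the small intestine and the liver. Apoa1, Apoc3, Apoa4 and Apoa5 lie side by side on chromosome 9, and Apoe, Apoc1 and Apoc2 lie side by side on chromosome 7. Apoa2 is on chromosome 1, Apob on chromosome 12 and Apom on chromosome 17.

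A level is the log2 intensity of a probe minus the 75th percentile of its array, so a level above 0 is brighter than most probes of the array. Levels of different probes are not comparable, since probes differ in brightness for reasons of sequence. The 75th percentile itself ranged from 119 to 142 in NZO and from 136 to 159 in B6. It was 0.23 lower in NZO on the log2 scale (6.97 ± 0.12 in NZO and 7.20 ± 0.11 in B6, SD, n = 4). No spot carried a saturation flag.

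The results turn on the Apoa4 probe, and Apoa1 is a neighbour in the same cluster that, like Apoa5 and Apoc3, did not pass. The Apoa4 and Apoa1 probe sequences are shown. The Apoa4 probe matches the plus strand of mm9 chr9:46049661-46050404. Its 60 bases span 744 bases of the genome, so the probe crosses an exon junction and reads spliced RNA. The Apoa1 probe matches mm9 chr9:46037921-46037980, also on the plus strand, without a gap. The sequence of NZO at these positions was not analysed here.
Apoa4 probe A_51_P327491: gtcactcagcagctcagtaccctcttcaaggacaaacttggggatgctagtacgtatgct
Apoa1 probe A_51_P408082: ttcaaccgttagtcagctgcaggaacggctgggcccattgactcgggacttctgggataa

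Of the 10 genes described here, Apoa4 alone passed the test in this comparison, and it was 2.35-fold higher in NZO liver. Its levels were 6.73, 5.56, 5.63 and 6.12 in NZO mice 003, 007, 009 and 011. In B6 mice 009, 010, 011 and 015 they were 4.68, 4.22, 4.83 and 5.37. All NZO mice were above all B6 mice, but the lowest NZO mouse was close to the highest B6 mouse and both strains spread widely. The log2 fold change was 1.23 (SE 0.32, 95% interval 0.50 to 1.96, limma adjusted p = 0.0358), from a mean of 6.01 ± 0.54 in NZO and 4.78 ± 0.48 in B6 (SD, n = 4). In terms of fold the interval ran from 1.42 to 3.89.

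The size of the Apoa4 difference varied with the arrays compared. It was 1.36 on the first scan day (3 NZO and 2 B6 arrays), 0.80 on the second (1 NZO and 2 B6) and 1.94 on the 1 slide that held both strains (1 NZO and 2 B6). When the scan day was added to the model the log2 fold change was 1.16 (limma adjusted p = 0.0566). When the slide was added instead it was again 1.94, because only the slide with both strains then informs the difference. The limma adjusted p rose to 0.0656 without NZO mouse 003, 0.0834 without NZO mouse 011, 0.0897 without B6 mouse 009, 0.0894 without B6 mouse 010 and 0.0783 without B6 mouse 011. It was below the threshold without NZO 007, NZO 009 or B6 015. The log2 fold change stayed between 0.99 and 1.43 in these 8 fits. Its sign could not change there, since all NZO mice were above all B6 mice.

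Because Apoa4 is also an intestinal gene, enterocyte markers were read on the same arrays. Of 6 markers, Vil1 (a microvillus protein), Alpi (intestinal alkaline phosphatase) and Lct (lactase) were not well above background on any array. Sis was above background on 1 NZO and 3 B6 arrays and Cdx2 on 1 NZO array. Fabp2, a fatty acid binding protein, was above background on all 8 arrays and differed by 0.15 (limma adjusted p = 0.676). Fabp2 was the brightest of the list and makes up nearly all of its summed level, which is thus close to a reading of 1 gene. Whether the Fabp2 signal came from enterocytes was not tested. The summed level of the 6 markers, each as a multiple of the 75th percentile, was 142, 81.5, 101 and 83.9 in NZO 003, 007, 009 and 011. It was 99.98, 98.9, 91.6 and 71.8 in B6 009, 010, 011 and 015, so the strains overlapped.

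**Figure D1:**
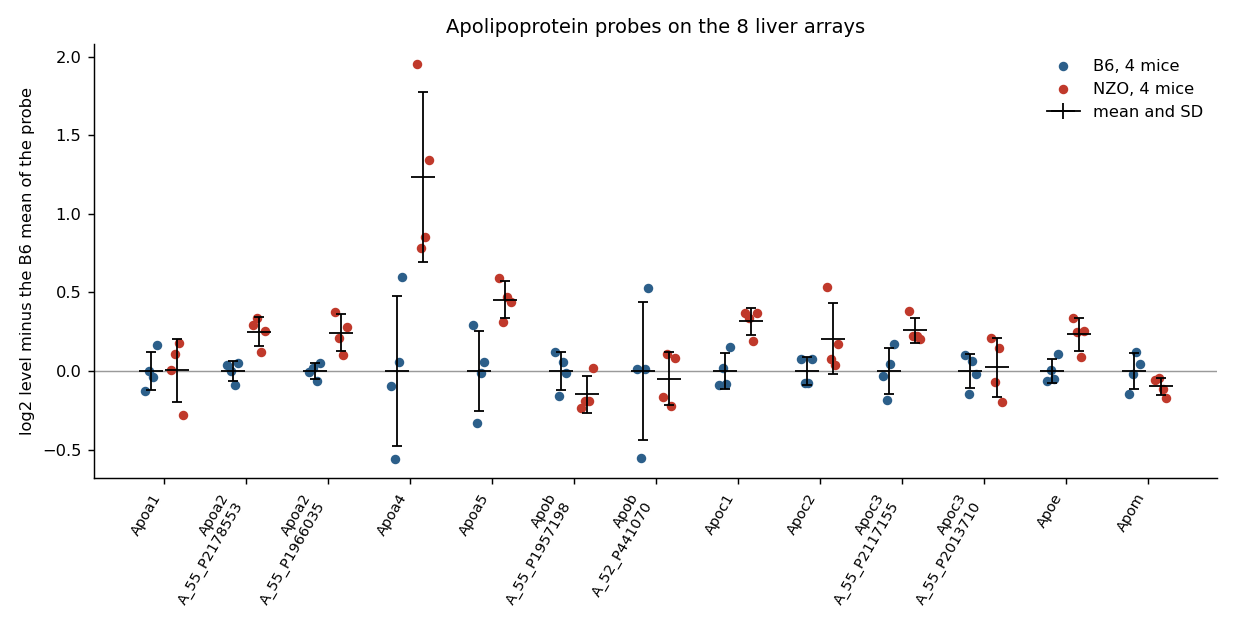
Log2 level of the 13 apolipoprotein probes on each array, minus the mean of the 4 B6 mice for that probe (y axis), by probe (x axis). Points are mice, and black bars are the mean and SD of 4 mice. Apoa4 stands apart with a mean difference of 1.23, and the other probes lie closer to the B6 mean. All NZO mice were above all B6 mice for 6 of the 13 probes, Apoa4 among them, and for 11.3% of all probes tested.

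Apoa5, a liver-made activator of triglyceride clearance that lies next to Apoa4, had the second largest difference. Its levels were 4.90, 4.61, 4.77 and 4.74 in NZO 003, 007, 009 and 011 and 4.59, 3.97, 4.29 and 4.36 in B6 009, 010, 011 and 015. The lowest NZO mouse was just above the highest B6 mouse. The log2 fold change was 0.45 (SE 0.14, 95% interval 0.13 to 0.78), and it missed the threshold with a limma adjusted p of 0.0741. Without B6 mouse 009 the log2 fold change was 0.55 and the limma adjusted p 0.0463. It was 0.64 on the first scan day, 0.17 on the second and 0.73 on the slide with both strains.

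The other 2 genes of the chromosome 9 cluster did not pass. Apoa1, the main HDL protein, had levels of 8.88, 8.98, 9.05 and 8.59 in NZO 003, 007, 009 and 011 and 8.74, 8.87, 8.83 and 9.04 in B6 009, 010, 011 and 015. The strains were interleaved. The difference was 0.00 with a 95% interval of -0.29 to 0.29, which in terms of fold is 0.82 to 1.23. The probe was printed on the array 10 times, and the SD between these spots (median 0.04 on the log2 scale) was smaller than that between mice (0.20 in NZO and 0.12 in B6).

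Apoc3, an inhibitor of triglyceride clearance, had 2 probes. The probe A_55_P2117155, near the end of the transcript, had levels of 10.27, 10.11, 10.11 and 10.09 in NZO 003, 007, 009 and 011 and 9.86, 9.70, 9.94 and 10.06 in B6 009, 010, 011 and 015. The NZO mice were just above the B6 mice, with a difference of 0.26 (95% interval 0.01 to 0.50, limma adjusted p = 0.156). The dim probe A_55_P2013710, near the start of a transcript of its own, lay between 0.86 and 1.27 in NZO and between 0.91 and 1.16 in B6, a difference of 0.02 (95% interval -0.25 to 0.30). The gap of 0.23 between the differences of the 2 probes gave p = 0.0857 in an exact two-sided permutation test over the mice, where the smallest possible p is 0.0286, and 0.257 after adjustment over the 3 genes with a pair of probes.

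The cluster was also read through the genes beside it. Of the 10 protein-coding genes nearest to the chromosome 9 cluster (5 on each side), 8 had tested probes, and 0 of their 11 probes passed in limma. They included Sik3, a kinase, and Zpr1 and Bud13 next to Apoa5. The largest difference among the 11 was that of Tagln, a smooth muscle protein, at -0.43 (limma adjusted p = 0.223).

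The promoters of Apoa4 and Apoa5, the pair of neighbours with the largest differences, are shown as the 250 bases before the RefSeq start on GRCm38.p6 (plus strand). They lie at chr9:46240594-46240843 for Apoa4 and chr9:46268358-46268607 for Apoa5. The letters searched on both strands were TATAAA for the TATA box, CCAAT for the CCAAT box, AGGTCA for a nuclear receptor element, CAAAGTCCA for a site of the Hnf4a kind, TGACGT for a site of the Creb kind and CACGTG for the E-box. Capitals mark a match.
Apoa4 promoter: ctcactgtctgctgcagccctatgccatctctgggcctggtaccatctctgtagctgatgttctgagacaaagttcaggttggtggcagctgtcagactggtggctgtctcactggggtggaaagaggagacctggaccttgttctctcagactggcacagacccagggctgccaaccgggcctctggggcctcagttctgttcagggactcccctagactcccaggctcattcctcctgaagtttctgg
Apoa5 promoter: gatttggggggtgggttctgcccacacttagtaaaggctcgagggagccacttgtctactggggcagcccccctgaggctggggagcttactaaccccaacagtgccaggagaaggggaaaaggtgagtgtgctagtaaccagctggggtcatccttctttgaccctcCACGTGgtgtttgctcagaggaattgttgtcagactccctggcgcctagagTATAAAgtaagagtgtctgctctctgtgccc
The Apoa5 window shown held the TATA box at positions -31 to -26 and the E-box at -82 to -77, counted from its start. Apoa5 had another annotated start, from which the same letters lay at -56 to -51 and -107 to -102. The Apoa4 window held 0 of the 6 motifs. Of all 32851 promoter windows of this length, 12.4% held the TATA box and 6.02% the E-box, while 33.8% held the CCAAT box, 14.0% the receptor element, 6.47% the Creb site and 0.384% the Hnf4a site. A match is a description of letters and no evidence of a bound factor. The table used here held 12 windows for 8 of the 10 apolipoprotein genes, and promoters of Apoc1 and Apoc3 were not analysed here. The TATA letters were also in 1 Apoa2 window, in that of Apob and in 1 of 3 Apoe windows, the CCAAT box in both Apoa2 windows, and the receptor element in 1 Apoa2 window and that of Apoc2.

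Most transcription factors known to act on these genes did not pass. The list held 19 factors with 28 tested probes, of which 1 passed upward and 1 downward, and its median difference was 0.06. Hnf4a, the nuclear receptor that drives much of liver expression, had levels of 7.38, 7.34, 7.46 and 7.19 in NZO 003, 007, 009 and 011 and 7.25, 7.14, 7.32 and 7.56 in B6 009, 010, 011 and 015. Its difference was 0.03 (95% interval -0.25 to 0.30). Creb3l3, a liver factor known to act on Apoa4 and Apoa5, differed by 0.09 (95% interval -0.16 to 0.33, limma adjusted p = 0.633). The 3 Ppara probes differed by 0.06, 0.23 and 0.39 and none of them passed (limma adjusted p of 0.837, 0.265 and 0.183).

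Srebf1 and Srebf2 are factors of fatty acid and cholesterol synthesis. Srebf1 had levels of 1.02, 0.49, 0.70 and 0.96 in NZO 003, 007, 009 and 011 and 1.94, 1.52, 1.33 and 1.56 in B6 009, 010, 011 and 015, and fell by 0.79 (limma adjusted p = 0.0159). It passed in all 8 fits that left out 1 mouse and in 19 of all 22 alternatives, but not with the mouse number as a replicate block. Only the numbers 009 and 011 occur in both strains, so that block takes the difference from those mice alone. Srebf2 rose by 0.37 on 1 probe (limma adjusted p = 0.0404) and differed by 0.28 on the other (0.373), and the former passed in 2 of 8 fits that left out 1 mouse. The Srebf2 difference was 0.060 in the deposited table as given (adjusted p = 0.777), where 0 probes of the list were higher and 3 lower.

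Among the HDL proteins, both Apoa2 probes were slightly higher in NZO without passing. Probe A_55_P2178553 had levels of 10.93, 10.97, 10.76 and 10.89 in NZO 003, 007, 009 and 011 and 10.68, 10.64, 10.55 and 10.69 in B6 009, 010, 011 and 015. The strains did not overlap. The difference was 0.25 (95% interval 0.04 to 0.46, limma adjusted p = 0.113), and on the other probe, A_55_P1966035, it was 0.24 (0.03 to 0.46, adjusted p = 0.134). The differences of the 2 probes were 0.01 apart (exact two-sided permutation p = 0.914).

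Apom, an HDL protein that carries sphingosine-1-phosphate, had levels of 7.50, 7.51, 7.44 and 7.39 in NZO 003, 007, 009 and 011 and 7.41, 7.54, 7.68 and 7.60 in B6 009, 010, 011 and 015. The strains overlapped. The difference was -0.10 (95% interval -0.31 to 0.12, limma adjusted p = 0.543).

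Apob, the structural protein of VLDL, did not pass on either of its 2 probes, and both differences were small. Probe A_55_P1957198 had levels of 7.96, 8.01, 8.01 and 8.22 in NZO 003, 007, 009 and 011 and 8.32, 8.04, 8.25 and 8.19 in B6 009, 010, 011 and 015. The highest NZO mouse lay among the B6 mice. The difference was -0.15 (95% interval -0.39 to 0.09, limma adjusted p = 0.399). Probe A_52_P441070, in another part of the gene, differed by -0.05 with a wide interval (-0.55 to 0.45), since the B6 mice ranged from 6.01 to 7.09. The gap between the probes gave an exact two-sided permutation p of 0.686.

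Apoe, Apoc1 and Apoc2, the genes of the chromosome 7 cluster, control particle uptake and lipolysis. Apoc1, an inhibitor of particle uptake, had levels of 10.72, 10.68, 10.54 and 10.72 in NZO 003, 007, 009 and 011 and 10.26, 10.37, 10.27 and 10.50 in B6 009, 010, 011 and 015. The lowest NZO mouse was just above the highest B6 mouse. The difference was 0.32 (95% interval 0.09 to 0.54, limma adjusted p = 0.0697). Apoc2, the cofactor of lipoprotein lipase, differed by 0.20 (95% interval -0.09 to 0.50, limma adjusted p = 0.348), and by 0.096 without NZO mouse 003. That mouse was at 8.35 and the other NZO mice between 7.86 and 7.99, against 7.74 to 7.90 in B6.

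Apoe, a ligand for the uptake of lipoprotein particles, had levels of 10.97, 10.88, 10.72 and 10.88 in NZO 003, 007, 009 and 011 and 10.57, 10.64, 10.58 and 10.74 in B6 009, 010, 011 and 015. NZO mouse 009 was below the highest B6 mouse. The difference was 0.23 (95% interval 0.02 to 0.45, limma adjusted p = 0.152), and it was -0.02 with quantile normalization and -0.01 in the deposited table as given. Apoe was also printed 10 times. Its single spots had a median SD of 0.14, and the SD between mice, of means over the spots, was 0.10 in NZO and 0.08 in B6. These values are not like for like, since a mean over 10 spots varies less than a single spot. Macrophages also make Apoe, so their markers were read too. Of 6 macrophage genes, 5 were lower in NZO, 4 of which were Clec4f (-1.13), Marco (-1.83), Cd5l (-0.71) and Adgre1 (-0.63 and -0.60 on 2 probes). Cd68 was lower on 1 probe (-0.42) and not on the other (-0.25, limma adjusted p = 0.485), and Lyz2 differed by 0.41 without passing (0.109). When 1 mouse was left out, Clec4f, Marco, Cd5l and the first Adgre1 probe passed in all 8 fits, and the second Adgre1 probe and Cd68 in 1 each. With the mouse number as a replicate block 0 of these probes passed. The summed level of the list was 148 in B6 and 81.4 in NZO, with every NZO mouse (76.2 to 86.5) below every B6 mouse (126 to 182) and Cd5l as its brightest gene. In bulk liver RNA fewer cells of a type and less RNA per cell cannot be told apart, and the part of the macrophages in the Apoe value was not tested.

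Of 11 genes around or inside the chromosome 7 cluster, apolipoproteins left out, 10 had tested probes, and of their 17 probes 0 were higher and 4 lower in limma. Relb, a subunit of NF-kB, fell by 0.94 and 0.76 on 2 probes (adjusted p of 0.00258 and 0.0298) and differed by 0.18 on the third. Bcl3, a nuclear partner of NF-kB, fell by 0.96 (0.0103). Nectin2, a cell adhesion protein, fell by 0.65 on 1 probe (0.0206) and differed by 0.42 and 0.27 on the other 2. When 1 mouse was left out, the Relb probe with the larger difference and Bcl3 passed in all 8 fits, the second Relb probe in 3 and Nectin2 in 4. Over all alternatives the former Relb probe passed in 19 of 21, with a log2 fold change between -1.03 and -0.36, and Bcl3 in 19 of 22. Tomm40, which lies next to Apoe, differed by 0.02 and 0.00 on its 2 probes.

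Of the 13 apolipoprotein probes, 1 was higher and 0 lower in NZO at a limma adjusted p under 0.05. The same rule called 6.78% of all probes tested higher and 7.44% lower. At the thresholds of the study's methods, an unadjusted p up to 0.05 and a log2 fold change of at least 0.7 in size, the counts were again 1 and 0, against 5.16% and 7.08% of all probes. The strains did not overlap for 6 probes that were higher in NZO and for 0 that were lower, against 11.3% and 10.7% of all probes. At an unadjusted p up to 0.05, 7 probes were higher, against 13.7% of all probes. Those 7 were both Apoa2 probes, Apoa4, Apoa5, Apoc1, the bright Apoc3 probe and Apoe, and 6 of them differed by less than 0.5. The median difference of the 13 probes was 0.23, and 10 of them were above 0, while the median of all probes was 0.01. With quantile normalization the median of the 13 was 0.02, with 8 above 0, and 2 (Apoa4 and Apoa5) were higher and 1 (Apom) lower at an unadjusted p up to 0.05. In the deposited table as given the median was -0.01, with 6 above 0, and 1 (Apoa4) was higher and 1 (the brighter Apob probe) lower by that rule.

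The brightest apolipoprotein probes were read beside the other bright probes of the arrays. Among 43 tested probes with a mean level of at least 10, the apolipoprotein probes included, 41 had a higher mean in NZO, and the median difference was 0.23. Of the 43, 5 were apolipoprotein probes: both Apoa2 probes, the bright Apoc3 probe, Apoc1 and Apoe. With quantile normalization the median of the 43 was 0.02, and the differences of the 5 probes were 0.01 and 0.07 for Apoa2, 0.09 for Apoc1, 0.13 for Apoc3 and -0.02 for Apoe. In the deposited table as given, with no scaling between arrays, they were 0.02, 0.03, 0.06, 0.01 and -0.01 in the same order. The 0.23 by which the 75th percentile was lower in NZO is about as large as the median difference of the 43. Over the 8 arrays their raw intensities ran from 210432 to 241994 for Apoe, from 219244 to 246872 and from 180152 to 194231 for the Apoa2 probes, from 173391 to 193585 for Apoc1 and from 96517 to 136656 for Apoc3. The brightest spots of the arrays read between 248521 and 279427. Whether the scanner response was compressed at this end was not tested.

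**Figure D2:**
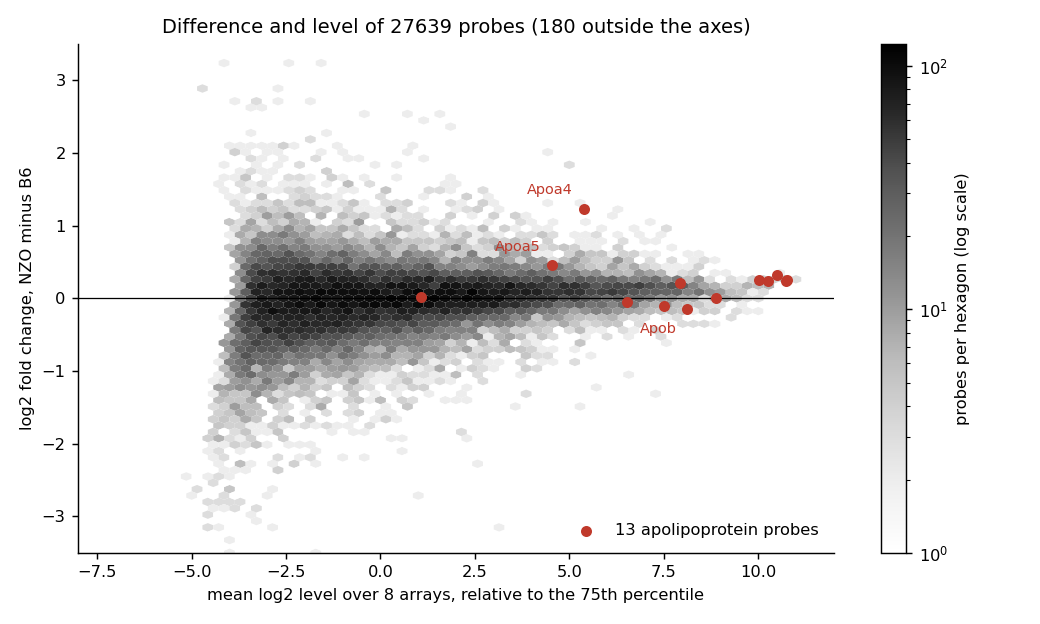
Log2 fold change of NZO over B6 (y axis) against mean level over the 8 arrays (x axis) for the 27639 probes tested, in grey hexagons shaded by number on a log scale, with the 13 apolipoprotein probes in red. Of the tested probes, 180 lie outside the axes. The 5 brightest apolipoprotein probes lie with the other bright probes slightly above 0, and Apoa4 lies above most probes of its level.

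Apoa4 did not depend on the scaling in this way. Its log2 fold change was 1.23 with the 75th percentile, 1.30 with the array median, 1.14 with quantile normalization and 1.00 in the deposited table as given, with limma adjusted p between 0.0315 and 0.0395 in these 4. Apoa5 kept its sign at 0.45, 0.52, 0.38 and 0.25 and passed in none of them. Apoa1 changed sign, from 0.07 with the array median to -0.24 in the deposited table as given.

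**Figure D3:**
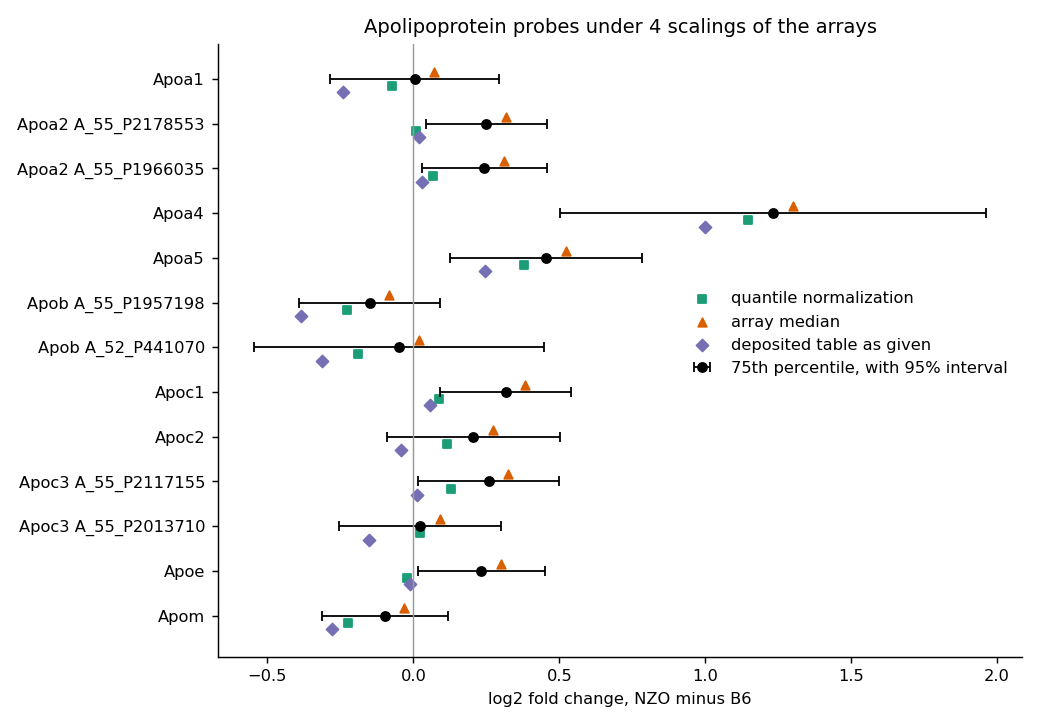
Log2 fold change of NZO over B6 (x axis) for each apolipoprotein probe (y axis) under 4 scalings of the arrays. Black circles with bars are the 75th percentile with its 95% interval, and the other symbols are the array median, quantile normalization and the deposited table as given. Apoa4 stays between 1.00 and 1.30, whereas Apoa2, Apoc1, Apoc3 (bright probe) and Apoe move to within 0.13 of 0 with quantile normalization.

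The apolipoproteins outside the list of 10 were mixed. Of 15 genes for other apolipoproteins and Apob editing, 14 had tested probes (19 probes), 2 probes were higher and 2 lower, and the median was 0.10. Apoh, a phospholipid-binding plasma protein, rose by 0.33 (limma adjusted p = 0.0289), and Apol9a rose by 0.47 on 1 of 2 probes (0.0477), though its near copy Apol9b differed by 0.28 (0.233) and their signals may be shared. Apol7a fell by 0.65 on 1 of 3 probes (0.0353), and the other 2 differed by -0.60 and -0.46. Apobr, a macrophage receptor for Apob-containing particles, fell by 1.04 (limma adjusted p = 0.00172), with levels of -2.15, -1.81, -2.35 and -2.03 in NZO 003, 007, 009 and 011 and -1.04, -1.03, -1.25 and -0.87 in B6 009, 010, 011 and 015. All B6 mice were above all NZO mice. Of these, Apobr alone passed in each of the 8 fits that left out 1 mouse, while Apoh passed in 1, and Apol7a and Apol9a in 2 each. With quantile normalization and in the deposited table as given, 0 probes of the list were higher, with Apoh at 0.10 and Apol9a at 0.24 in the latter. Apobr was between -1.20 (slide as a fixed block) and -0.35 (normexp) over the alternatives, and did not pass with the slide or the mouse number as a block.

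The others of this list did not pass. Apoc4, inside the chromosome 7 cluster, differed by 0.09, Apof by 0.28 (limma adjusted p = 0.0854), Apon by 0.26, Apod by 0.57 with a wide interval (-0.56 to 1.69), Clu by -0.09, Apool by 0.16 and the 3 Apoo probes by -0.00, 0.04 and 0.10. Apobec1, the enzyme that edits Apob RNA, differed by -0.26 (95% interval -0.56 to 0.05) and its cofactor A1cf by 0.11 (-0.27 to 0.48). Apol6 was above background on 1 array only and was not tested.

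VLDL assembly was read through 10 genes with 12 probes, of which 1 was higher and 2 were lower, with a median of 0.08. Mttp, the transfer protein that loads Apob with lipid, had levels of 4.55, 4.03, 4.26 and 4.31 in NZO 003, 007, 009 and 011 and 3.62, 3.76, 3.61 and 3.59 in B6 009, 010, 011 and 015. All NZO mice were above all B6 mice. Mttp rose by 0.64 (95% interval 0.36 to 0.93, limma adjusted p = 0.00984), and passed whichever mouse was left out. It was 0.37 in the deposited table as given (adjusted p = 0.111), and it also did not pass with the slide as a fixed block (0.0735), with the mouse number as a replicate block (0.137) or with the test that the study's methods name (0.0592). Mia3, a receptor for large cargo leaving the endoplasmic reticulum, fell by 0.48 and 0.52 on its 2 probes (0.0314 and 0.0353), in 2 and 0 of the 8 fits without 1 mouse. Tm6sf2, which acts in VLDL lipidation, differed by 0.40 (0.0558).

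Of 10 plasma lipases and lipid transfer genes, 9 had tested probes, with 2 of 10 probes higher, 0 lower and a median of 0.19. With quantile normalization 1 probe was higher, and in the deposited table as given 0 were higher and 1 was lower. Pltp, the phospholipid transfer protein, had levels of 1.53, 1.46, 1.11 and 1.22 in NZO 003, 007, 009 and 011 and 0.75, 0.79, 0.90 and 0.76 in B6 009, 010, 011 and 015. The strains did not overlap. Pltp rose by 0.53 (limma adjusted p = 0.018), passing in 6 of 8 fits without 1 mouse, and Lcat, which esterifies cholesterol on HDL with Apoa1 as its cofactor, rose by 0.31 (0.0437), passing in 0 of 8. Lpl, the lipase that Apoa5 and Apoc3 act on, did not pass and differed by 0.07 on 1 probe and -0.75 on the other (95% interval -1.52 to 0.02).

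Of 20 probes of 12 receptor and efflux genes, 4 were higher and 4 lower, with a median of -0.21. In the deposited table as given 2 were higher and 7 lower, and with the mouse number as a replicate block 1 was higher and 0 were lower. Vldlr, the VLDL receptor that binds Apoe, had levels of 0.41, -0.31, 0.59 and 0.86 in NZO 003, 007, 009 and 011 and -2.62, -2.71, -2.57 and -2.31 in B6 009, 010, 011 and 015. It was 7.68-fold higher in NZO, a log2 fold change of 2.94 (SE 0.24, limma adjusted p = 0.00011). All NZO mice were above all B6 mice. The log2 fold change was between 1.64 (normexp background correction) and 3.32 (mouse number as a replicate block) over the alternatives and passed in all of them. A second, dimmer Vldlr probe is among the 4 counted higher, but it was well above background on only 1 of the 4 B6 arrays and no fold is given for it.

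Scarb1, the HDL receptor that takes up cholesterol from particles with Apoa1, was 2.56-fold and 2.64-fold lower in NZO on its 2 probes. On probe A_55_P1954021 its levels were 3.25, 3.33, 3.18 and 2.98 in NZO 003, 007, 009 and 011 and 4.48, 4.09, 4.60 and 5.01 in B6 009, 010, 011 and 015. Every B6 mouse was above every NZO mouse. The log2 fold changes were -1.36 (SE 0.19) and -1.40 (SE 0.16), with limma adjusted p of 0.00198 and 0.000784. Both probes passed in all 8 fits that left out 1 mouse.

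Some receptors gave different answers on different probes. Sort1, a sorting receptor of Apob, fell by 1.40 on 1 probe (limma adjusted p = 0.00344) and differed by 0.32 and -0.73 on the other 2. Stab2, a scavenger receptor, rose by 0.48 on its brightest probe (0.00889) and differed by -0.93 (0.0508) and -0.44 on the others. Lrp1, a receptor of Apoe-rich remnants, differed by -0.06 on its brightest probe (95% interval -0.35 to 0.24) and fell by 0.89 on a dim one (0.0392), which was above background on 3 of the 4 NZO arrays, was -0.12 with normexp and passed in 3 of 8 fits that left out 1 mouse. Abca1 and Abcg1, which export cholesterol to HDL, differed by -0.35 and -0.38 without passing (limma adjusted p of 0.172 and 0.0824).

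**Figure D4:**
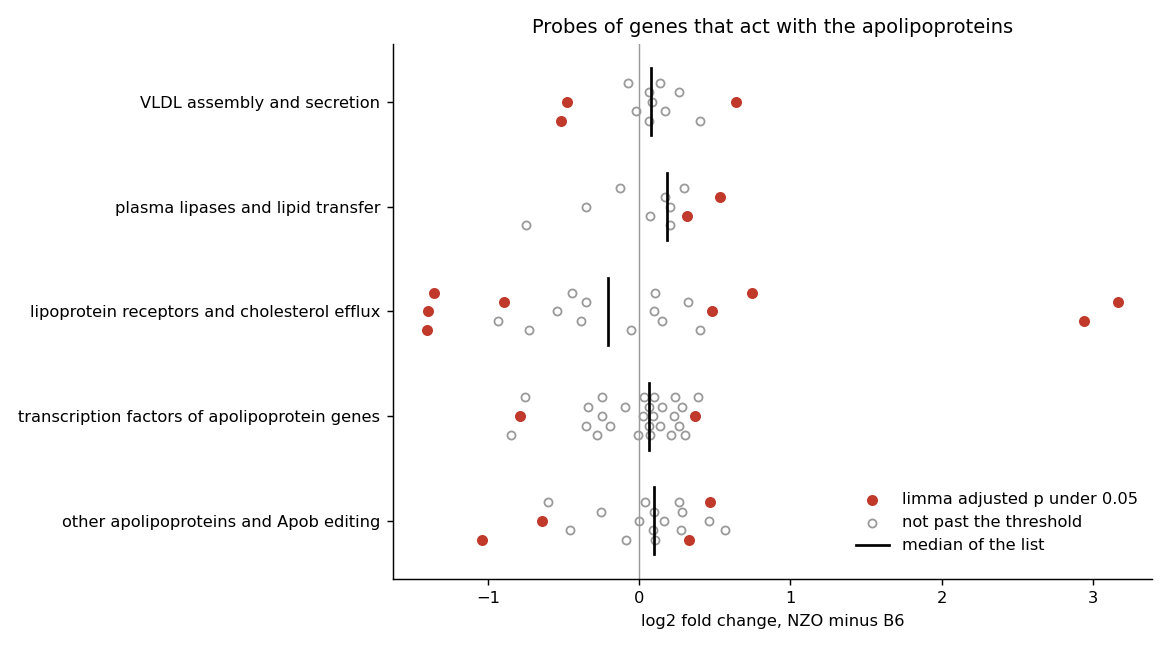
Log2 fold change of NZO over B6 (x axis) for every tested probe of the 5 lists of genes that act with the apolipoproteins (y axis). Filled points passed a limma adjusted p under 0.05, open points did not, and the black line is the median of the list. Apart from the dimmer Vldlr probe, the point farthest above 0 is the brighter Vldlr probe at 2.94. Farthest below 0 are both Scarb1 probes and 1 Sort1 probe, between -1.36 and -1.40. The dimmer Vldlr probe was well above background on only 1 of the 4 B6 arrays, so its position is not read as a fold.

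The genes whose levels followed Apoa4 most closely over the 8 mice were Tlr12 (Pearson r = 0.98, Spearman rho = 0.93), Copz2 (0.98 and 1.00) and Camp (0.98 and 0.95). They were chosen as the 3 highest correlations among all named genes, over 8 arrays that share the same strains and scaling, and no test applies. Camp, an antimicrobial peptide of neutrophils, had levels of 1.71, 0.67, 0.36 and 1.14 in NZO 003, 007, 009 and 011 and -1.04, -1.65, -1.14 and 0.29 in B6 009, 010, 011 and 015. B6 mouse 015, the B6 mouse with the highest Apoa4, was close to the lowest NZO mouse here too. The difference between the strains was 1.85 for Camp, 0.57 for Tlr12, a Toll-like receptor, and 0.34 for Copz2, a coat protein subunit, given as a description, since a gene that follows Apoa4 over these mice also follows its difference between strains.

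Single mice ran through several apolipoprotein probes at once. NZO mouse 003 was the highest NZO mouse on 8 of the 13 probes, and B6 mouse 015 the highest B6 mouse on 8. NZO 009 was the lowest NZO mouse on 6 and B6 010 the lowest B6 mouse on 6. The 13 probes share the scaling of each array and 3 genes have 2 probes, so these counts are not independent.

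The tissue label was checked against hepatocyte markers. All 6 hepatocyte markers (Alb, Ttr, Cps1, Tat, Ahsg, Fgb) were above background on all arrays and 0 passed in limma, with a median difference of 0.09 and Alb as the brightest. Their summed level ran from 6379 to 7023 in NZO and from 5313 to 6489 in B6.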

How the data were processed

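Liver RNA of 4 NZO and 4 B6 mice was measured on 1-colour Agilent arrays. Scanner files for every array and 1 combined table were deposited. The intensity values in them were, per the file headers, extracted with Agilent Feature Extraction 11.0.1.1 (9.1 in the labels), which subtracts background from each spot to give a processed signal and does not scale arrays to each other. The deposited p-value of each spot against its background was not used, and detection and outlier flags were those that Feature Extraction set. The deposited table is called normalized but on every array all 59305 of its values equal the raw median intensity (tolerance 0.01).

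The processed signal was taken as log2 without control spots or flagged outliers (96 to 137 per array). Each array was set to its own 75th percentile and repeat spots were averaged, with every probe kept separate. Probes well above background on all 4 arrays of a strain were tested (27639 of 55681). Between 50.4% and 60.1% of spots per array were well above background, and the number of arrays limits the precision.

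limma 3.58.1 in R 4.3.3 compared the strains without a covariate across all tested probes, with Benjamini-Hochberg adjustment over all of them, and intervals are 95%. Pairs of probes were compared with exact two-sided permutation tests over 70 splits of the arrays. The fit was tested on simulated arrays with the spread of the real ones. It called 59% of added log2 changes of size 1, 85% of those of size 2, and 7 unchanged probes. The mice were on 5 slides and were scanned on 2 days (day 1 with 3 NZO and 2 B6 mice, day 2 with 1 and 2). Where both strains share a mouse number, the number names different mice. With the mouse number as a block, only the shared numbers 009 and 011 inform the strain difference. With the slide as a fixed block, only the 1 slide with both strains does (1 NZO and 2 B6 mice).

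Genes were named by the files' gene names (Adgre1 is named Emr1 there), and promoter sequences and neighbours came from RefSeq tables of GRCm38.p6, while probe positions are those of the files (mm9). The apolipoprotein genes, pathway lists and markers were chosen with earlier results of these data known. The text names all probes of the 10 genes, every other apolipoprotein, the largest 3 increases and 3 decreases past the adjusted threshold in each other list, cluster neighbours and markers past it, and the 3 genes most correlated with the probe of smallest p. The values of 3 genes of the pathway lists are not reported here, though list summaries include them. Further values are given where another probe of a named gene, or a known partner, was read beside them. The alternatives were normexp background correction (offset 50), quantile normalization, the array median, the deposited table with and without scaling, outlier spots kept, other filters on dim probes, 1 probe per gene, blocks for slide, scan day and mouse number, the Welch test that the methods name, and each mouse left out. Their use on the pathway, marker and neighbour probes was added after seeing the data. The authors' other tissues were not analysed here.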

Additional observations from a re-analysis of the deposited data

Results flagged for a closer look

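Within a strain of 4 mice, 1 mouse stood far from the other 3 for 6 probes (a gap to the nearest mouse that was most of the range, by Dixon's 95% limit), among 112 groups of 4 looked at. Chance flags about 1 group in 20. For the bright Apoc3 probe, NZO mouse 003 was at 10.27 and the others between 10.09 and 10.11. For Apool, NZO 003 was at 1.82 and the others between 1.45 and 1.48. For Apod, NZO 007 was at -0.59 and the others between -2.73 and -2.46. For the dimmer Mia3 probe, NZO 007 was at 0.38, below the others at 0.69 to 0.75. For Cd68, NZO 007 was at 1.79, above the others at 1.42 to 1.47. For Mttp, B6 mouse 010 was at 3.76 and the others between 3.59 and 3.62, and all 4 stayed below the NZO mice.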

How the results depend on the processing

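Of the 13 probes of the 10 genes, the 1 called higher at the adjusted threshold was Apoa4. The count was 2 with the deposited table minus its 75th percentile (Apoa4 and Apoa5). It was 0 with no filter on dim probes, with the slide or the scan day as a fixed block, with the mouse number as a replicate block and with the Welch test of the methods, and between 0 and 1 when 1 mouse was left out. Without B6 009 the probe called was Apoa5. The count called lower was 0 in every alternative. At the thresholds of the methods the count was 1 in every alternative but the slide as a fixed block. That fit takes the strain difference from the 1 slide with both strains alone (1 NZO and 2 B6 mice). The log2 fold change of Apoa4 was positive in all 22 alternatives, and its adjusted p from limma ran from 0.0270 to 0.135 in the 13 limma fits that kept all mice, passing in 9, and from 0.0256 to 0.0897 in the 8 without 1 mouse, passing in 3. It did not pass with the Welch test. With the mouse number as a replicate block it was 1.12 (limma adjusted p = 0.0965). Only the numbers 009 and 011 occur in both strains, so that fit compares those mice alone, which are different mice. Their correlations of deviations were -0.26 and -0.0041, and the block left 206 of all probes called, against 3930.

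Several probes that did not pass changed sign. Apoa1 was -0.075 with normexp, -0.074 with quantile normalization and with the slide as a block, -0.24 in the deposited table, -0.053 in it after scaling, -0.0050 with the scan day as a block and -0.054 to 0.098 without 1 mouse. The less bright of the Apob probes, A_52_P441070, was 0.018 with the array median and -0.23 to 0.13 without 1 mouse. Apoc2 was -0.044 in the deposited table. The dim Apoc3 probe was -0.0036 with normexp, -0.15 in the deposited table, -0.11 with the replicate block and -0.039 to 0.096 without 1 mouse. Apoe was -0.021 with quantile normalization and -0.011 in the deposited table. Between the Apoa2 probes the difference was -0.015 with normexp, -0.0097 in the deposited table with and without scaling, -0.059 with quantile normalization and -0.032 to 0.037 without 1 mouse. Between the Apob probes it was -0.28 to 0.030 without 1 mouse. The causes were not tested. Over all refits of single apolipoprotein probes, 22 changed sign, 10 lost the threshold (all of Apoa4) and 2 gained it (both of Apoa5), and the others did neither.

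The 32 called probes of the pathway lists, markers and neighbours kept their direction in every alternative, and 17 passed whichever mouse was left out. In the deposited table as given, the median of all probes was -0.15, against 0.01 after scaling to the 75th percentile, and 22.8% of its 4344 calls were higher in NZO, against 47.7% of 3930. No filter left 2811 calls, the Welch test 2497 and the slide as a fixed block 1481. The dim Apoc3 probe lay near 1 on the log2 scale, where background takes a larger part of the signal.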

Other observations

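The other cell type markers read beside the apolipoproteins were these. Of 4 red blood cell genes, 2 passed and both were higher in NZO. Hba-a1, a haemoglobin subunit, rose by 1.00 (limma adjusted p = 0.0183) and Alas2, the first enzyme of haem synthesis in red cells, by 0.90 (0.0023), while Hbb-b1 differed by 0.81 (0.0704) and Slc4a1 by 0.61 (0.322). Hba-a1 passed in 6 and Alas2 in all 8 of the fits that left out 1 mouse, and 1 of the 4 was higher in the deposited table as given and 0 when mouse number was the replicate block. The summed level of the 4 was 361 in NZO and 181 in B6, with Hba-a1 as the brightest. Of 6 adipocyte genes, Adipoq, Plin1 and Lep were not above background on any array, and Car3, which hepatocytes also express, rose by 0.47 (0.0133), but did not pass with quantile normalization (0.37, 0.0739) or in the deposited table as given (0.21, 0.393). The summed level of the list was 597 in NZO and 433 in B6, with the Car3 probe as the brightest. These sums add probe signals, which do not compare amounts of RNA between genes. Cidec differed by 0.42 and 0.29 on 2 probes and Fabp4 by -0.30, and none of them passed.

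Of 6 exocrine pancreas genes, 4 were not above background on any array, and 0 of the 2 tested passed in limma. The skeletal muscle genes did not pass either, but their summed level was 18.8 in NZO mouse 007, 6.18 in B6 mouse 010 and between 0.212 and 1.59 in the other 6 mice, with Myh4, a fast myosin, as the brightest. NZO 007 had the lowest Apoa4 level of the NZO mice and B6 010 the lowest of the B6 mice. The part of these markers in the apolipoprotein values was not tested, and the Apoa4 difference was 1.38 without NZO 007 and 1.05 without B6 010.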
